A study of Mus musculus with 2 samples.

Results

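The keratins are the intermediate filament proteins of epithelial cells. Their genes were taken as every row of the deposited tables whose symbol begins with Krt and a digit, which gave 37 genes of the 17333 listed in either library. Of these 37 genes, 26 were listed in the Procr-positive library, against 34 in the Procr-negative library, and 23 were listed in both. A gene that is not listed in a library was taken as having 0 reads there. The series holds 1 Procr-positive library and 1 Procr-negative library, both made from mammary cells of adult virgin mouse glands, taken at 8 weeks and sorted fresh. Both sorts were lineage-negative and positive for CD105, CD31 and Sca1, and they differed in surface Procr, the endothelial protein C receptor. No genetic modification or treatment is named for either group, while strain, number of animals and number of sorts were not given in the sources used here. Since each group is a single library, differences were not checked against replicates, and p-values were not computed. Intervals in brackets are exact 95% intervals of the counts and cover counting error only, since they leave out the spread between animals, sorts and library preparations.

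Keratin filaments are built from obligate heterodimers of an acidic type I and a basic type II protein. Simple epithelia and the luminal cells of mammary ducts are known for Krt8 with Krt18, together with Krt7 and Krt19. The basal, myoepithelial layer of the gland is known for Krt5 with Krt14, and other keratins belong to stratified epithelia such as epidermis, oesophagus and cornea, or to hair and its root sheath. Endothelial cells and mesenchymal cells both use vimentin as their main cytoplasmic intermediate filament.

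Unique reads numbered 9.22 M in the Procr-positive library, against 9.57 M in the Procr-negative library. The sort label was checked on Procr, which had 1321 RPKM (reads scaled to gene length and library depth) in the Procr-positive library, against 147 RPKM in the Procr-negative library. The tissue label was checked on markers of endothelium and epithelium. Pecam1, which encodes CD31, had 712 against 52.7 RPKM and the endothelial cadherin gene Cdh5 had 455 against 46.6 RPKM in the Procr-positive and the Procr-negative library. A list of 16 pan-endothelial genes was 2-fold or more higher in the Procr-positive library for each of its members. The epithelial adhesion genes Epcam (57.8 against 1169 RPKM) and Cdh1 (26.7 against 614 RPKM) were at higher levels in the Procr-negative library, although both sorts were labelled endothelial. Defining endothelial markers were thus present in both libraries, but in the Procr-negative library they lay below Epcam and Cdh1. Over all 12509 genes with at least 1 RPKM in either library the median log2 difference was −0.38, and 2-fold calls were split into 1643 higher and 2964 lower genes, or 2426 higher and 1644 lower after centring on that median.

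Keratin RNA took a smaller part of the Procr-positive library. There 10435 reads lay in keratin genes, which is 0.113% of the library (0.111 to 0.115), against 214928 reads or 2.25% (2.24 to 2.26) in the Procr-negative library. The share was 19.9-fold lower in the Procr-positive library (19.5 to 20.2). By comparison, summed reads of 15 general epithelial genes that are not keratins were 19.2-fold lower in the Procr-positive library (18.7 to 19.6). Their levels summed to 320 RPKM in the Procr-positive library, against 6013 RPKM in the Procr-negative library, which is 18.8-fold lower. Single members of this list ranged from 1.57-fold (Prom1) to 37.9-fold (Esrp2) lower in the Procr-positive library. Sums follow the most abundant genes. The median log2 difference of RPKM + 1 was −4.14 for these 15 genes, beside −2.78 for the 17 keratins compared below. In bulk RNA, fewer keratin-expressing cells and less keratin RNA per cell cannot be told apart. The cells that gave the keratin reads were not identified.

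On the log2 scale of RPKM + 1, 17 keratins had at least 1 RPKM in at least 1 library and were compared. Of these 17 genes, 14 were at least 2-fold lower in the Procr-positive library, 1 was at least 2-fold higher and 2 lay within 2-fold. Over all 12509 genes compared, 23.7% were called lower and 13.1% higher. The median log2 difference of the 17 keratins was −2.78, beside −0.38 for all genes. Without the level filter it was −0.42 over the 37 members, beside −0.16 for all genes. Of the 17 genes, 12 reached 1 RPKM in both libraries, 1 (Krt20) in the Procr-positive library alone and 4 in the Procr-negative library alone, so the counts and the median describe genes that passed a filter and not all 37 members. The remaining 20 keratins had at most 8 reads in the Procr-positive library, against 17 in the Procr-negative library.

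**Figure D1:**
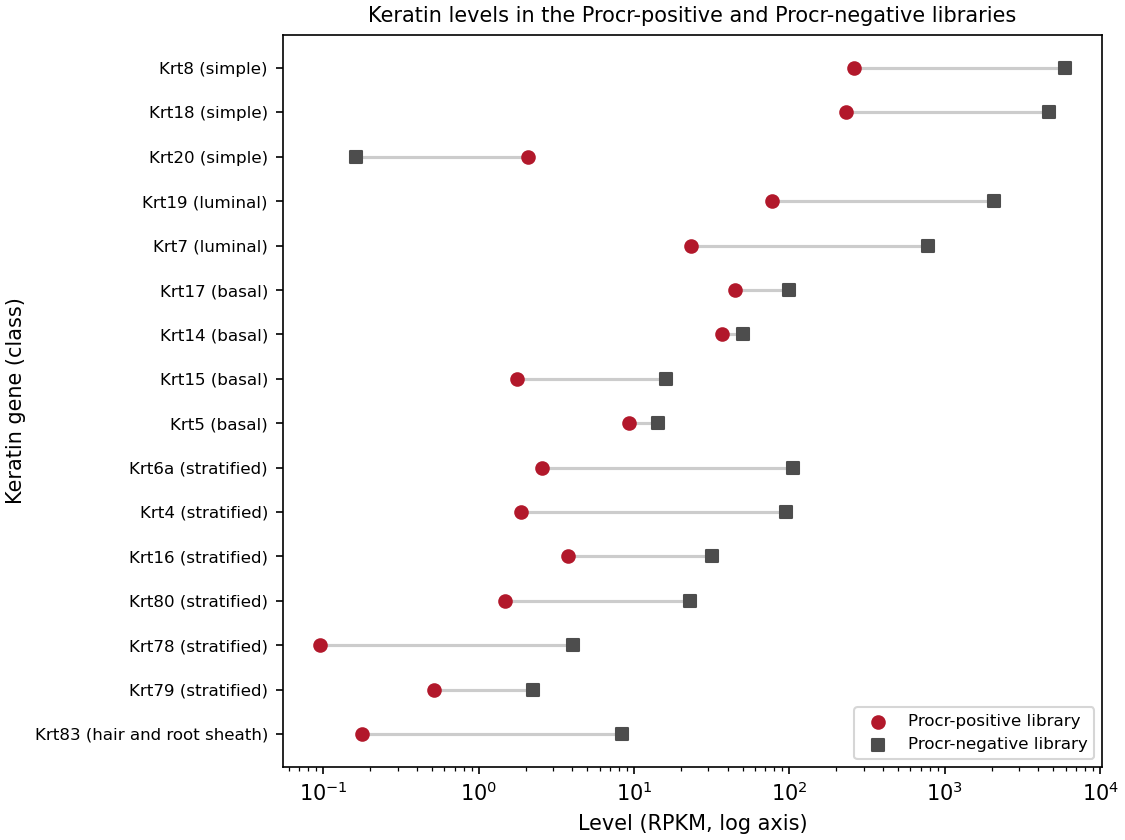
Levels of 16 keratin genes in RPKM on a log axis, ordered by class, with circles for the Procr-positive and squares for the Procr-negative library (1 library each). The circle lies left of the square for every gene shown but Krt20, and the gaps are narrowest for the basal genes Krt14 and Krt5.

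The genes that carry most of the keratin RNA lie on chromosome 15, with Krt8 and Krt18 next to one another in the type II cluster although Krt18 is a type I gene. To show the sequence in front of these genes and in front of the ones that differ from them, the 250 bases before the RefSeq start are printed 5′ to 3′ on the strand of the gene (RefSeq, GRCm38.p6) for the simple keratins Krt8 (chr15:102004343-102004592, minus strand) and Krt18 (chr15:102027966-102028215, plus strand), the luminal Krt7 (chr15:101412153-101412402, plus strand), the basal Krt5 (chr15:101712906-101713155, minus strand) and Krt20 (chr11:99438154-99438403, minus strand), the gene with the opposite difference. Capitals mark matches to the motifs named after the sequences.
Krt8: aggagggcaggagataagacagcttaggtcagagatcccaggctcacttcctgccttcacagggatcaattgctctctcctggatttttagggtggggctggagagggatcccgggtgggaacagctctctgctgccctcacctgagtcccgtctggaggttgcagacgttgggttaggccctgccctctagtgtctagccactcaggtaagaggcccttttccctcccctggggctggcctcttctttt
Krt18: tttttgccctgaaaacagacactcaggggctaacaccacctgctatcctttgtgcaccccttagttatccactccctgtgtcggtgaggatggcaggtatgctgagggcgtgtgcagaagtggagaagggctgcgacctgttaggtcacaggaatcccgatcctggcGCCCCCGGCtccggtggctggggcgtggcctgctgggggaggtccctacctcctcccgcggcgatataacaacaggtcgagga
Krt7: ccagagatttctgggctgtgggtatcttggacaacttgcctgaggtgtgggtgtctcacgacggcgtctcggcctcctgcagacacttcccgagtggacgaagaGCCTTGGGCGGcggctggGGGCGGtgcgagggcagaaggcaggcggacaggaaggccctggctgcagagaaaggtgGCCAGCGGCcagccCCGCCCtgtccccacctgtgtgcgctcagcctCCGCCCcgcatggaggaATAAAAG
Krt5: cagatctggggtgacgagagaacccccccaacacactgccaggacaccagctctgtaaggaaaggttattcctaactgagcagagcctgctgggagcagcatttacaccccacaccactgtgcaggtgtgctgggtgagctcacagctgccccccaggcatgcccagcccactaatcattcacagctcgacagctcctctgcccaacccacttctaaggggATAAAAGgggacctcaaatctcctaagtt
Krt20: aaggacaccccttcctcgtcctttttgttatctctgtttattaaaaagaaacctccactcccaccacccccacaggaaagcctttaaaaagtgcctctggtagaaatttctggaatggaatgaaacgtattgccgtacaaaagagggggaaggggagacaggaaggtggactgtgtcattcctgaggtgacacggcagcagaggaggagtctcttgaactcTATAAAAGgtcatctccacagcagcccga

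The motifs were searched on both strands. The first was the box with the letters TATAAA. A string like it, ATAAAAG, can overlap it and was chosen after the sequences were seen. The GC box was read as GGGCGG and the AP-1 motif as TGANTCA. The AP-2 motif was read as GCCNNNGGC and can overlap a GC box. The ETS motif was read as ACCGGAAGT. The Grainyhead-like motif was read as AACCGGTT. Krt20 holds TATAAA at bases −29 to −24 before its start, and Krt5 holds ATAAAAG at −29 to −23. Krt7 holds 4 GC boxes and 2 AP-2 strings, and its ATAAAAG abuts the start. Krt18 holds 1 AP-2 string at −83 to −75, and Krt8 holds none of the strings in this window. Of 25 promoter windows of 24 member genes, 10 (40.0%) hold TATAAA, against 12.4% of 32851 windows of all genes. The other 13 members have no window in the table, among them Krt19, Krt4, Krt6a, Krt15, Krt16, Krt17 and Krt80, and 9 of the 10 genes with TATAAA were under 1 RPKM in both libraries, so these shares mostly describe keratins with few or no reads. For ATAAAAG the shares are 36.0% of the member windows and 4.83% of all windows. Since ATAAAAG was chosen after the sequences were seen, this contrast cannot stand as a result. For the GC box the shares are 8.00% and 32.7%. AP-1 strings lie in 8.00% of the member windows and 6.75% of all, and AP-2 strings in 12.0% and 13.7%. ETS and Grainyhead-like strings lie in 0 of the 25 member windows, and in 0.804% and 0.116% of all windows. These matches describe letters and do not show that a factor binds there.

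The simple keratins Krt8 and Krt18 were the most abundant keratins of both libraries. Krt8, the type II partner of simple epithelia (NCBI gene 16691; chromosome 15, 101996711 to 102004342), had 4353 reads and 262 RPKM in the Procr-positive library, against 102565 reads and 5941 RPKM in the Procr-negative library. It was the gene with the highest RPKM of the Procr-negative library and ranked at place 271 of 16247 listed genes in the Procr-positive library. Krt18, its type I partner (NCBI gene 16668; chromosome 15, 102028216 to 102032026), had 2992 reads and 232 RPKM in the Procr-positive library, against 62244 reads and 4648 RPKM in the Procr-negative library. Depth-scaled reads were 22.7-fold lower in the Procr-positive library for Krt8 (22.03 to 23.4) and 20.1-fold lower for Krt18 (19.3 to 20.8), and these intervals do not overlap. Within the Procr-positive library the level of Krt8 per length was 1.13 times that of Krt18 (1.08 to 1.18), and within the Procr-negative library 1.28 times (1.27 to 1.29).

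Krt19 and Krt7, the luminal keratins, followed the simple pair with a larger gap. Krt19, a type I keratin of ducts and other simple epithelia (chromosome 11, 100140810 to 100145926), had 1076 reads and 77.3 RPKM in the Procr-positive library, against 29749 reads and 2061 RPKM in the Procr-negative library. Krt7, a type II keratin of glandular ducts (chromosome 15, 101412403 to 101427806), had 343 reads and 23.2 RPKM in the Procr-positive library, against 11969 reads and 781 RPKM in the Procr-negative library. Krt19 was thus 26.7-fold lower (25.1 to 28.3) and Krt7 33.6-fold lower (30.2 to 37.6) in the Procr-positive library. The counting intervals of Krt18, Krt8, Krt19 and Krt7 do not overlap one another, in this order of increasing fold. The 4 genes together made up 84.0% of all keratin reads in the Procr-positive library (83.3 to 84.7) and 96.1% in the Procr-negative library (96.0 to 96.2).

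The other simple keratins were low. Krt20, a type I keratin known from intestinal and urothelial surface cells and Merkel cells (chromosome 11, 99428385 to 99438153), had 37 reads and 2.08 RPKM in the Procr-positive library, against 3 reads and 0.163 RPKM in the Procr-negative library. It was the only one of the 17 compared keratins that was higher in the Procr-positive library, at 12.8-fold with a wide interval (4.05 to 64.9). In the Procr-positive library its reads covered 50.05% of the gene length, against a median of 56.3% over 1106 other genes of like read density. Krt23, the fourth simple keratin, had 6 reads in the Procr-positive library, against 11 in the Procr-negative library, and stayed below 1 RPKM in both.

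Among the simple, luminal, basal and stratified classes, the basal keratins differed least in summed reads, at 1.92-fold lower in the Procr-positive library (1.80 to 2.05). Krt14, the type I keratin of basal and myoepithelial cells (chromosome 11, 100203162 to 100207510), had 567 reads and 36.6 RPKM in the Procr-positive library, against 802 reads and 49.9 RPKM in the Procr-negative library. Its type II partner Krt5 (chromosome 15, 101707069 to 101712905) had 186 reads and 9.21 RPKM in the Procr-positive library, against 297 reads and 14.2 RPKM in the Procr-negative library. Both lay within 2-fold, at 1.36-fold lower for Krt14 (1.22 to 1.52) and 1.54-fold lower for Krt5 (1.28 to 1.86) in the Procr-positive library. Relative to the median of all genes, their log2 differences were −0.06 and −0.19.

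Krt17, a type I keratin of basal and appendage epithelium that is induced after injury (chromosome 11, 100256215 to 100261029), had 634 reads and 44.9 RPKM in the Procr-positive library, against 1462 reads and 99.8 RPKM in the Procr-negative library. It was 2.22-fold lower in the Procr-positive library (2.02 to 2.44), a call that ended when values were centred on the median of all genes (log2 −0.76) and with upper-quartile scaling (−0.81). Krt15, a type I keratin of basal and hair bulge cells (chromosome 11, 100131759 to 100135949), stood apart from the other basal genes with 28 reads and 1.77 RPKM in the Procr-positive library, against 264 reads and 16.0 RPKM in the Procr-negative library. It was 9.09-fold lower in the Procr-positive library (6.14 to 13.9), and its interval overlaps none of those of Krt5, Krt14 and Krt17.

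**Figure D2:**
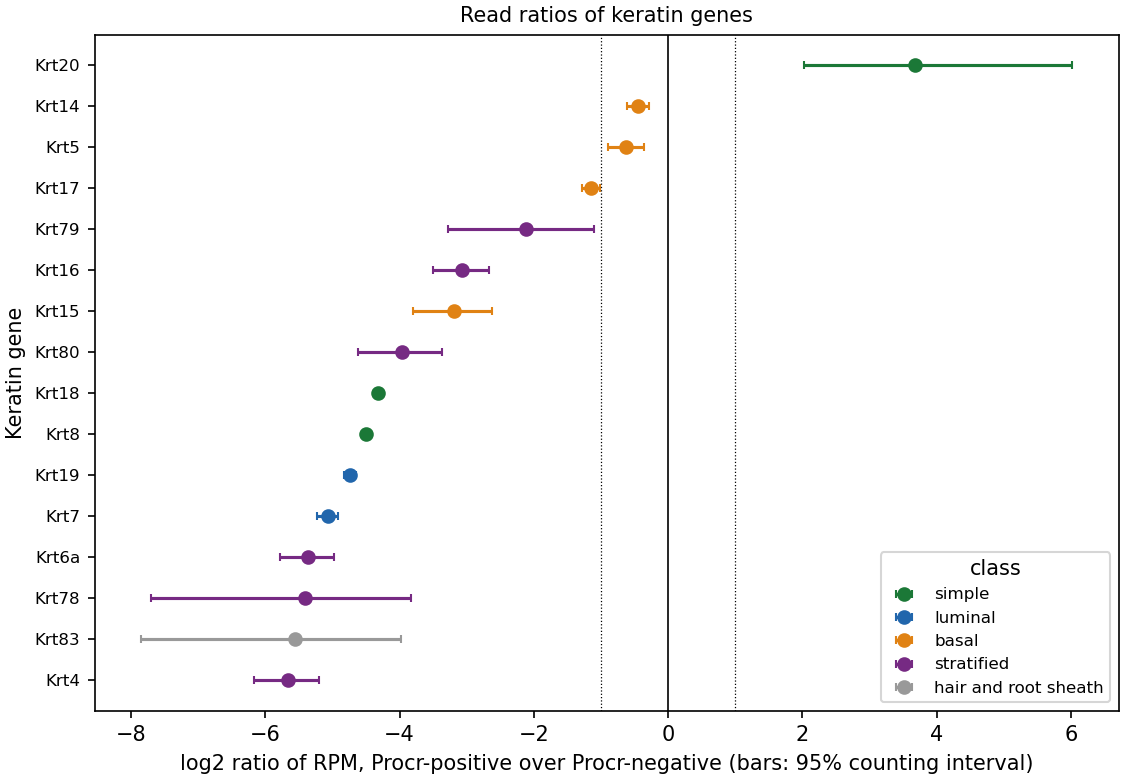
Read ratios of 16 keratin genes on a log2 scale, Procr-positive over Procr-negative, with 95% counting intervals as bars, coloured by class; dotted lines mark 2-fold. Krt14, Krt5 and Krt17 lie nearest to 0 among the genes that were lower in the Procr-positive library, and Krt4 lies farthest from it.

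The make-up of the keratin RNA differed between the libraries. The 4 basal genes took 13.2% of the summed keratin RPKM in the Procr-positive library, against 1.30% in the Procr-negative library, and 13.6% (12.9 to 14.2) and 1.31% (1.27 to 1.36) of the keratin reads. Krt18 exceeded Krt14 per length by 6.33 times in the Procr-positive library (5.79 to 6.94) and by 93.1 times in the Procr-negative library (86.9 to 99.97). Krt8 exceeded Krt5 by 28.4 times (24.5 to 33.1) and by 419 times (374 to 471). Within the basal pair, Krt5 stood at 0.252 times the level of Krt14 in the Procr-positive library (0.212 to 0.297) and at 0.284 times in the Procr-negative library (0.248 to 0.325), with overlapping intervals.

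**Figure D3:**
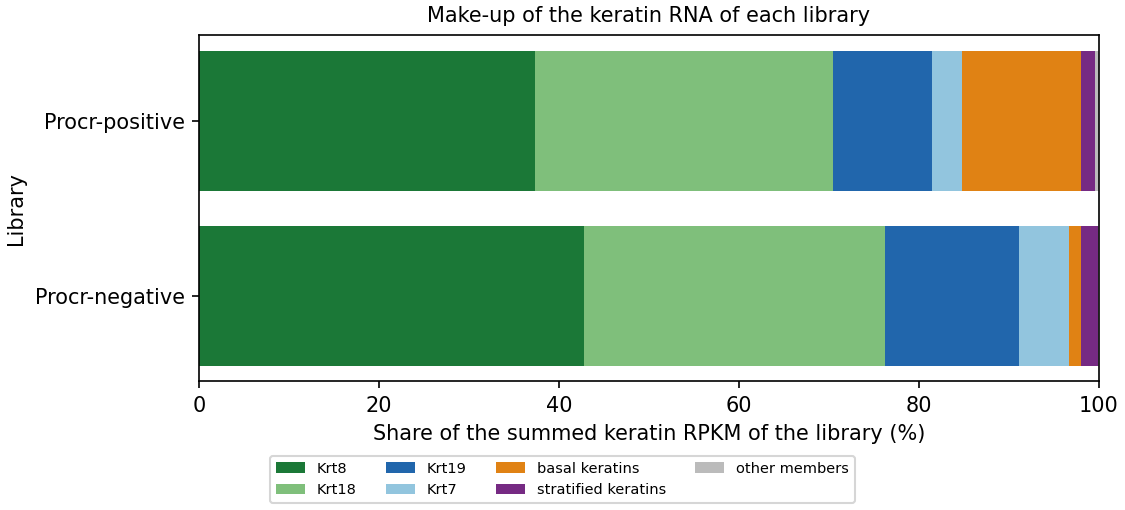
Share of the summed keratin RPKM of each library taken by Krt8, Krt18, Krt19, Krt7, the basal and the stratified keratins, in percent. The basal segment spans 13.2% in the Procr-positive and 1.30% in the Procr-negative library, while Krt8 and Krt18 span most of both bars.

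Markers of basal and myoepithelial cells other than keratins went both ways. Of 13 listed genes 11 were compared, with 5 higher and 3 lower in the Procr-positive library (median log2 −0.25; summed level 919 against 381 RPKM in the Procr-positive and the Procr-negative library). The higher ones were Myh11, Tagln, Mylk, Acta2 and Jag2, of which the first 4 are contractile genes that vascular smooth muscle also expresses, and all 5 genes of a pericyte list were higher in the Procr-positive library too. The lower ones were the laminin chain gene Lamb3 and the integrin genes Itgb4 and Itga6, of which Itga6 lay within 2-fold after centring (log2 −0.85). Among all genes compared, 13.1% were called higher and 23.7% lower. Trp63, the basal epithelial transcription factor gene, had 20 reads and 0.403 RPKM in the Procr-positive library, against 79 reads and 1.53 RPKM in the Procr-negative library. Trp63 reached 1 RPKM only in the Procr-negative library, so it could not be called higher. Oxtr, the oxytocin receptor gene of myoepithelium, had 9 reads in each. Which cells the basal keratin reads came from was not tested.

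Keratins of stratified epithelia were low in the Procr-positive library and higher in the Procr-negative library. All 6 compared genes of this class were at least 2-fold lower in the Procr-positive library, while 23.7% of all genes compared were called lower. Krt78 and Krt79 reached 1 RPKM only in the Procr-negative library, so they could not be called higher. The summed class level was 10.9 RPKM in the Procr-positive library and 263 RPKM in the Procr-negative library. Krt4, the type II keratin of the oesophageal and other internal stratified linings (chromosome 15, 101918535 to 101924735), had 37 reads and 1.87 RPKM in the Procr-positive library, against 1947 reads and 94.8 RPKM in the Procr-negative library. Krt6a, a type II keratin of hair follicle and wounded epidermis (chromosome 15, 101689928 to 101694305), had 54 reads and 2.56 RPKM in the Procr-positive library, against 2301 reads and 105.2 RPKM in the Procr-negative library. These were the widest gaps among keratins with at least 20 reads in each library, at 50.7-fold (36.7 to 72.3) and 41.1-fold (31.4 to 54.8) lower in the Procr-positive library.

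Known type I partners of these type II keratins were read beside them. Krt13, the usual type I partner of Krt4, had 0 reads in the Procr-positive library, against 4 in the Procr-negative library, where Krt4 exceeded it 298 times per length (116 to 1094). Krt16, the type I keratin that pairs with Krt6a (chromosome 11, 100246091 to 100248902), had 55 reads and 3.78 RPKM in the Procr-positive library, against 480 reads and 31.8 RPKM in the Procr-negative library, which is 8.41-fold lower in the Procr-positive library (6.35 to 11.3). Krt6a thus stood at 0.678 times the level of Krt16 in the Procr-positive library (0.457 to 1.01) and at 3.31 times in the Procr-negative library (3.0003 to 3.66). The interval in the Procr-positive library holds 1. Against Krt17, another type I partner, Krt6a stood at 0.0571 times its level in the Procr-positive library (0.0424 to 0.0754) and at 1.05 times in the Procr-negative library (0.987 to 1.13). Only uniquely mapped reads were counted, and Krt6a shares much of its sequence with Krt6b.

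Krt80, a type II keratin of several epithelia (chromosome 15, 101348315 to 101370162), had 24 reads and 1.47 RPKM in the Procr-positive library, against 387 reads and 22.8 RPKM in the Procr-negative library, 15.5-fold lower in the Procr-positive library (10.3 to 24.6). Part of its gene is overlapped by the long non-coding RNA gene Gm35853, and whether counting used strand was not given in the sources used here. The same limit holds for Krt6a, which is overlapped by the long non-coding RNA gene Gm49428. Krt78, a type II keratin, had 3 reads (0.0948 RPKM) in the Procr-positive library, against 132 reads (4.02 RPKM) in the Procr-negative library, a ratio of 0.0236 (0.00480 to 0.0704). Its full RefSeq span lies 87 bases from that of Krt8, the gene with the most reads in the Procr-negative library. The start used for the promoter window of Krt78 lies farther away, next to position 101954288, while the span of Krt8 runs from 101996711. Krt79, a type II keratin of the hair follicle canal and sebaceous duct, had 10 reads in the Procr-positive library, against 45 in the Procr-negative library, and was 4.34-fold lower in the Procr-positive library (2.16 to 9.65). Its log2 difference of −1.09 became −0.71 after centring and −0.92 with upper-quartile scaling, which ended the 2-fold call. The epidermal pair was near absent: Krt1 had 3 reads in the Procr-positive library, against 7 in the Procr-negative library, and Krt10 had 8 and 17 reads.

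Non-keratin markers of epidermis moved with this class. Of 19 listed genes 14 had reads and 6 were compared, and all 6 were lower in the Procr-positive library (summed level 25.8 against 750 RPKM). Among all genes compared, 23.7% were called lower. Sbsn, among the 6, reached 1 RPKM only in the Procr-negative library, so it could not be called higher. The 4 genes with the largest log2 differences were Sprr1a, Ly6d, Serpinb5 and Tgm1, of which Sprr1a and Tgm1 serve the cornified envelope. The defining genes of terminal epidermis were at or near 0, with 5 and 6 reads for Lor in the Procr-positive and the Procr-negative library, 0 and 1 reads for Ivl, and Flg not listed in either library. Which cells the stratified keratin reads came from was not tested.

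Hair and root sheath keratins were low in both libraries. Of 13 listed genes of this class 2 reached 1 RPKM, and both did so only in the Procr-negative library. Both were lower in the Procr-positive library, but a gene that passed the filter in this way could not be called higher. Over all genes compared, 23.7% were called lower. The class summed to 8 reads in the Procr-positive library, against 219 in the Procr-negative library. Most of these lay in the gene deposited as Krt83 (NCBI gene 406219, named Krt87 in RefSeq; chromosome 15, 101431490 to 101438804), with 3 reads in the Procr-positive library, against 146 reads and 8.36 RPKM in the Procr-negative library, a ratio of 0.0213 (0.00435 to 0.0635). Its neighbour at 3684 bases is Krt7. The gene that RefSeq now calls Krt83 was deposited under another symbol, with 1 read in each library. Hair follicle markers other than keratins were low, at 2.30 RPKM summed over 10 listed genes in the Procr-positive library, against 20.4 RPKM in the Procr-negative library, where Msx2 had 18.3 RPKM.

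Among the 20 keratins under 1 RPKM in both libraries, the counting interval of the ratio lay wholly below 1 for Krt84 (0 reads in the Procr-positive library, against 8 in the Procr-negative library), Krt31 (0 and 7 reads) and Krt42 (1 and 10 reads). Against a floor of 3 reads, Krt84 was at least 2.57-fold and Krt31 at least 2.25-fold lower in the Procr-positive library, while the exact counting intervals, which also cover the error of the 8 and 7 reads, bound these folds from below at 1.65 and 1.39. Krt222, a keratin-like gene, had 8 reads in the Procr-positive library, against 5 in the Procr-negative library, a ratio whose interval holds 1. Of all 37 genes, 10 had at most 3 reads in both libraries. Krt12, Krt25 and Krt73 were the 3 genes listed only in the Procr-positive library, with at most 2 reads, and 11 were listed only in the Procr-negative library, with 1 to 8 reads. RefSeq lists 53 protein-coding keratin genes, 27 on chromosome 11 and 26 on chromosome 15, and 3 of these were deposited under other symbols and so fell outside the rule; the one with the most reads, 1700011A15Rik (Krt88 in RefSeq), had 1 read in the Procr-positive library, against 19 in the Procr-negative library.

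The keratins were also summed by filament type. The 18 type I genes summed to 399.6 RPKM in the Procr-positive library, against 6910 RPKM in the Procr-negative library, and the 19 type II genes to 301 and 6977 RPKM. Type II levels thus stood at 0.753 times type I in the Procr-positive library, and at 1.01 times in the Procr-negative library. From reads in place of RPKM, the log2 ratio of type II to type I was −0.11 in the Procr-positive library, against 0.33 in the Procr-negative library, so which library lay nearer to equal sums turned with the unit. Without Krt8 and Krt18 type I exceeded type II in both libraries, with log2 ratios of type II to type I of −2.09 in the Procr-positive and −1.13 in the Procr-negative library. Krt19 is the largest type I term left in each.

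Genes that anchor or regulate keratin filaments were lower in the Procr-positive library together with the keratins. Of 16 listed genes 15 were compared, with 12 lower, 0 higher and 3 within 2-fold (median log2 −3.31). Over all genes compared, 23.7% were called lower. Ppl, Evpl, Eppk1, Tchp and Pof1b reached 1 RPKM only in the Procr-negative library, so they could not be called higher. The desmosomal plaque gene Pkp3 had 4.34 RPKM in the Procr-positive library, against 118 RPKM in the Procr-negative library, and the plakin gene Ppl 0.9503 against 39.7 RPKM. Fam83h, whose product is known to organise keratin filaments, had 1.55 RPKM in the Procr-positive library, against 48.9 RPKM in the Procr-negative library, and desmoplakin, Dsp, which ties keratins to desmosomes, 3.36 against 79.1 RPKM. The 3 genes within 2-fold were Dst, Tchp and Fblim1, and the cytolinker gene Plec, which also binds vimentin and actin, was 2.17-fold lower in the Procr-positive library (2.10 to 2.23), a call that ended after centring (log2 −0.72).

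Intermediate filament genes outside the keratin family did not follow them. Of 15 listed genes 8 were compared, with 4 higher in the Procr-positive library, 0 lower and 4 within 2-fold (median log2 0.31). Among all genes compared, 13.1% were called higher and 23.7% lower. Prph reached 1 RPKM only in the Procr-positive library, so it could not be called lower. Vim, the vimentin gene, had 18407 reads and 1089 RPKM in the Procr-positive library, against 3028 reads and 173 RPKM in the Procr-negative library. Des, the desmin gene of muscle, had 74.2 against 5.95 RPKM, Synm, which encodes synemin, 9.06 against 1.08 RPKM, and Prph, a neuronal filament gene, 1.51 against 0.224 RPKM. Those within 2-fold were the lamin genes Lmna, Lmnb1 and Lmnb2, and Nes. Vim alone thus exceeded the sum of all keratins in the Procr-positive library, 1089 against 701 RPKM, whereas in the Procr-negative library the keratins summed to 13887 RPKM beside 173 RPKM of Vim.

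Of 17 epithelial transcription factor genes, 15 were lower in the Procr-positive library, 0 were higher and 2 were not called (median log2 −3.09). Over all genes compared, 23.7% were called lower. Pgr, Esr1, Elf5, Trp63, Ovol2, Grhl2, Grhl3, Tfap2a and Tfap2b reached 1 RPKM only in the Procr-negative library, so they could not be called higher. The largest differences were those of the progesterone receptor gene Pgr (0.283 against 24.5 RPKM in the Procr-positive and the Procr-negative library), Foxa1 (1.56 against 45.2 RPKM), Ehf (1.36 against 40.6 RPKM) and Elf3 (3.85 against 55.0 RPKM). Trp63 and Grhl3 lay within 2-fold on the log2(RPKM + 1) scale, which understates low genes. Their depth-scaled reads were 3.81-fold (2.31 to 6.57) and 6.99-fold (2.45 to 27.4) lower in the Procr-positive library. Of 14 compared luminal mammary genes other than keratins, 12 were lower and 0 higher in the Procr-positive library (median log2 −3.61). The lists overlap, since Elf5, Esr1, Pgr, Foxa1 and Gata3 are on both the transcription factor and the luminal list, Ehf, Elf3 and Grhl2 are on the general epithelial list too, and Trp63 is on the basal list.

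**Figure D4:**
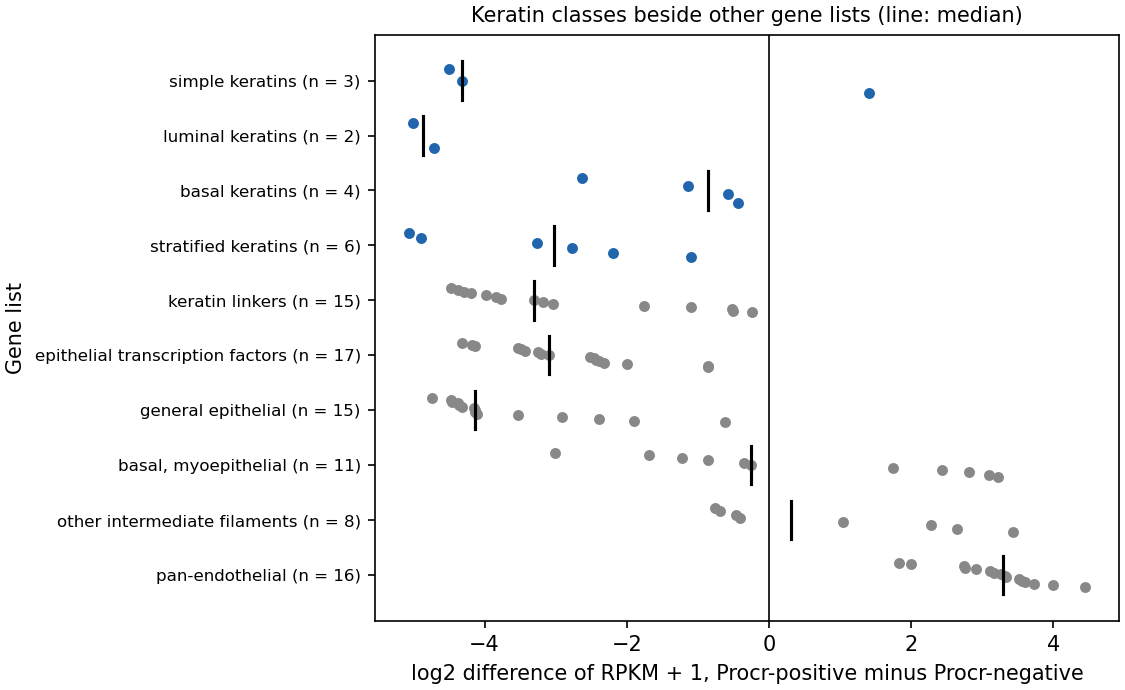
Log2 differences of RPKM + 1, Procr-positive minus Procr-negative, for the compared genes of 4 keratin classes (blue) and 6 other lists (grey), with a line at each median. Simple, luminal and stratified keratins lie with the epithelial lists apart from Krt20, the basal keratins lie nearer to 0 apart from Krt15, and the pan-endothelial genes lie on the opposite side.

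Markers of other cell types were read from short lists, although a lineage-negative, CD31-positive gate is meant to leave out fibroblasts and most leukocytes. Of 6 fibroblast genes 6 were lower in the Procr-positive library (4 after centring; summed level 85.7 against 573 RPKM), and leukocyte genes were higher in 3 of 5 compared (4 after centring) and lower in 0 (54.5 against 26.8 RPKM). Among all genes compared, 23.7% were called lower and 13.1% higher. The fibroblast gene Pdgfra reached 1 RPKM only in the Procr-negative library, so it could not be called higher. The leukocyte genes Ptprc and Itgam reached it only in the Procr-positive library, so they could not be called lower. Mesothelial genes, which could accompany Krt8, Krt18 and Krt19, were near 0 in both, with 1 of 7 compared (Gpm6a, 51 against 13 reads, 4.07-fold higher in the Procr-positive library with an interval of 2.18 to 8.16, and called on the log2(RPKM + 1) scale only after centring), 1.74 RPKM summed in the Procr-positive library, against 0.793 RPKM in the Procr-negative library, and Msln not listed in either.

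Near-identical copies can limit some keratin values, since only uniquely mapped reads were counted. Sharing was measured as the percentage of 50-base words of the longest protein-coding GENCODE transcript that also occur in a transcript of another gene. Read length was not given in the sources used here. The shared percentage was 62.0% for Krt6a, with Krt6b as the main partner (43.6%), and 37.6% for Krt16, 36.9% for the gene deposited as Krt83, 29.7% for Krt8 (26.9% with the pseudogene Krt8-ps), 14.4% for Krt14 and 12.2% for Krt5. For Krt19, Krt4, Krt78, Krt79 and Krt20 it was 0. Krt6b itself was not listed in either library.

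The deposited coverage, the share of a gene's length under reads, was set beside that of other genes of like read density. In the Procr-negative library 61.7% of Krt6a was covered by its 2301 reads, against a median of 98.0% (5th percentile 78.3%) over 322 other genes of like read density. Krt83 was covered to 59.7%, against a median of 91.0% (5th percentile 63.1%) over 1521 genes. Krt8, by contrast, was covered to 99.2% in both libraries and Krt16 to 94.9% in the Procr-negative library. How far shared sequence lowered the counts of Krt6a and Krt83 was not tested.

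**Figure D5:**
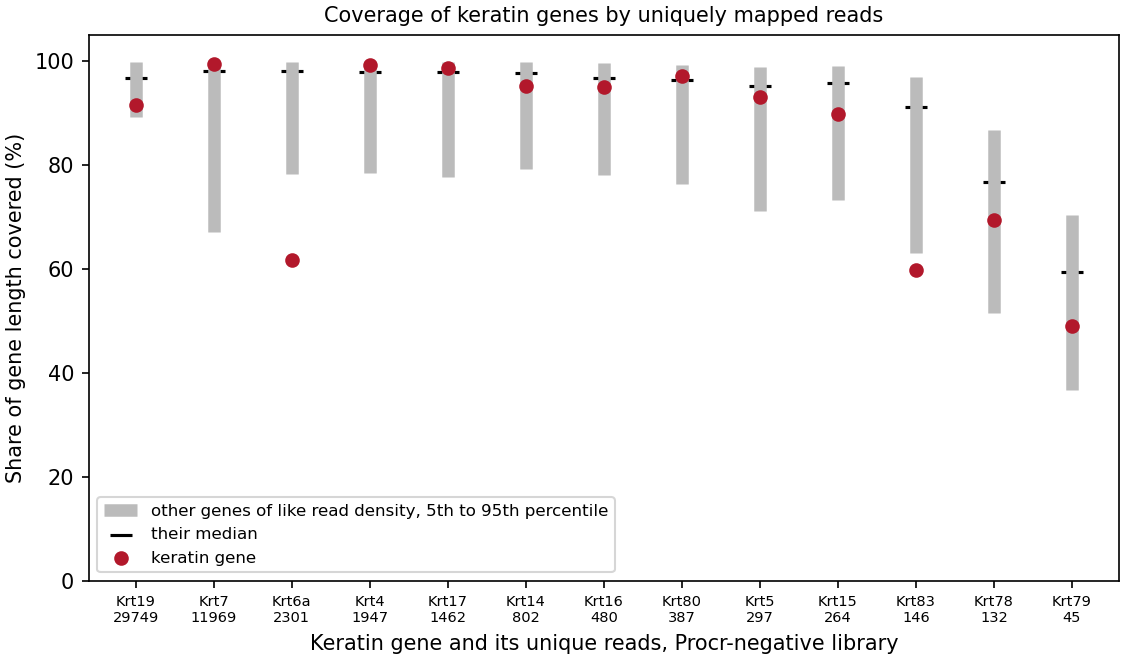
Share of gene length covered by unique reads in the Procr-negative library for 13 keratin genes, ordered by read number (points), beside the 5th to 95th percentile (bars) and median (ticks) of other genes of like read density. Krt6a and Krt83 lie below their bars and the other 11 lie within them.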

How the data were processed

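Total RNA was extracted with Trizol and read as single ends on an Illumina HiSeq; per the labels' protocols, unique mapping was to mm10. Aligner, counting tool, annotation and strand use were not given in the sources used here. Per the file headers, the deposited counts hold each gene's uniquely mapped reads, and they sum to 9219995 (Procr-positive) and 9565002 (Procr-negative). RPKM was deposited by the authors and equals reads divided by listed length and these totals, scaled as usual, for 100% of listed genes (relative tolerance 1e-06). Coverage was deposited as a percent of gene length, per the file headers; its meaning was taken from the column name.

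Members were grouped into simple, luminal, basal, stratified, hair and root sheath, and other keratins. Members and all gene lists were chosen with earlier results of these data known. Keratins with at least 50 reads in a library were named with both values, as were the few that complete a count; for the linker, filament and transcription factor lists the 4 members with the largest log2 difference were named, and other named list genes were picked after their values were seen. A member is not reported here by name. Genes with at least 1 RPKM in a library were compared on log2(RPKM + 1), Procr-positive minus Procr-negative, and called from 2-fold. This scale understates changes of low genes. A gene that reached 1 RPKM in 1 library alone could not be called higher in the other, which applies to some members of the gene lists. Folds of single genes are ratios of depth-scaled reads (RPM) with exact conditional binomial (Clopper-Pearson) 95% intervals; PCR copies are not independent molecules. The floor of a count of 0 was 3 reads, which is 0.325 RPKM (Procr-positive) and 0.314 RPKM (Procr-negative) for a gene of 1 kb. Coordinates are from RefSeq for GRCm38.p6, the assembly behind mm10, and word sharing is from GENCODE M21 transcripts of GRCm38. The calculations were tested on simulated counts. Python 3.11.15, pandas 2.3.3, NumPy 2.4.6, SciPy 1.17.1 and matplotlib 3.10.9 were used.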

Additional observations from a re-analysis of the deposited data

How the results depend on the processing

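Log2 values were recomputed as TPM, as RPM with a prior of 1 read, with upper-quartile scaling, after centring on the all-gene median, with pseudocounts of 0.1 or 0.5, and with the level filter dropped or raised to 5 RPKM. The count of keratins 2-fold lower in the Procr-positive library was 14, and 11 to 14 under these settings; it was also 14 where the counting interval had to lie wholly past 2-fold. The count of 1 higher gene (Krt20) was 0 with the filter of 5 RPKM, which removes that gene, and 1 otherwise. The median log2 difference of −2.78 was −3.87 with a pseudocount of 0.1, −3.95 with a prior of 1 read, −3.27 with the 5 RPKM filter and −0.42 without a filter, where 20 genes with few reads enter. Under the 6 settings that recompute single genes (a filter leaves them as they are), 0 of 96 values of named keratins changed sign, 0 gained a 2-fold call and 4 ended one, those of Krt17 and Krt79 after centring and with upper-quartile scaling. Without Krt8 the keratin share was 0.0660% in the Procr-positive and 1.17% in the Procr-negative library, and as a share of summed RPKM 0.158% and 3.02%; the ratio of shares, 0.0504, was 0.0562 and 0.0521 under these settings. The log2 ratio of type II to type I levels was −0.41 in the Procr-positive and 0.01 in the Procr-negative library; from reads it was −0.11 and 0.33, and without Krt8 and Krt18 −2.09 and −1.13. No paired analysis was possible because each group holds 1 library, and leaving out a library leaves no comparison. Depth limits the 20 keratins under 1 RPKM, whose differences were mostly not detectable.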
